A study of Drosophila melanogaster with 3 samples.

Results

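The 290 nuclear tRNA genes of Drosophila melanogaster were examined for binding of the tagged protein CG8944 in embryos. They were the genes that the Ensembl annotation (release 115, dm6 coordinates) classes as tRNA on the 6 chromosome arms 2L, 2R, 3L, 3R, 4 and X, out of 18164 genes of all types there, transposable elements left out, of which 13945 code for protein. Arm 2R held 98 of them, 3R 79, 3L 48, 2L 41 and X 24, and arm 4 held 0. The genes carried 44 anticodons and fell into 22 isotypes, an isotype being the amino acid a tRNA carries, with the initiator methionine (iMet) and selenocysteine (SeC) tRNAs counted as isotypes of their own. Male and female embryos aged 0 to 24 h, from 1 transgenic line in which CG8944 carries eGFP at its C-terminus, made up 3 biological replicates. Chromatin sonicated to between 200 and 800 bp was recovered with an antibody to GFP and sequenced. The 3 replicates form 1 group with no untagged or other comparison group, they share 1 line, and whole embryos mix all cell types, so the lists do not tell in which cells a site was bound.

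The genes of tRNAs are read by RNA polymerase III from a promoter that lies inside the gene. Its parts, the A box and the B box, are bound by the assembly factor TFIIIC, which places TFIIIB just upstream of the transcription start. In the fly genome many tRNA genes are near-identical copies, scattered singly, in clusters, or inside introns of protein-coding genes, whose own promoters are read by RNA polymerase II. A peak close to a tRNA gene can therefore also be close to the transcription start site (TSS) of a protein-coding gene.

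The promoter letters are inside the genes. Of the 290 genes, 287 held an A box core, TNGNNNA beginning at base 7 to 9, and 271 (93.4%) held a B box core, GTTCNANNC. All 14 genes that had a reproducible peak, described below, held both cores, as did most of the others (273 and 257 of 276). The first 3 sequences are whole genes beside such peaks, 5′ to 3′ on the gene's strand, shown because the strongest peak lay beside one (Tyr) and the others have identical copies elsewhere without a peak (Asp, Val). Capitals mark the A box core and then the B box core. They are RefSeq Release 6 (dm6) sequence. The gene tRNA:Asp-GTC-1-5 lies at chr2L:8541761-8541832 (plus strand), tRNA:Tyr-GTA-1-8 at chr3R:8669081-8669174 (minus strand) and tRNA:Val-CAC-2-5 at chr3R:19672277-19672349 (minus strand).
tRNA:Asp-GTC-1-5 gene: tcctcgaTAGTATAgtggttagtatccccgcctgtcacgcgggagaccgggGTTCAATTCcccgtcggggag
tRNA:Tyr-GTA-1-8 gene: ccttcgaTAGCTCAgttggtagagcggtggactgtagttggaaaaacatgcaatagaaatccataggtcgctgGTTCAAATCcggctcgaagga
tRNA:Val-CAC-2-5 gene: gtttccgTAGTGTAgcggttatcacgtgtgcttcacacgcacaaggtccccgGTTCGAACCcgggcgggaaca
The next 5 sequences are the 101 bp centred on a reproducible summit, the base of highest signal in a peak, each on the plus strand, and are what the protein's signal was centred on beside the tRNA gene named. They lie at chr3R:8669345-8669445 (Tyr), chrX:3427713-3427813 (Gln), chrX:6744249-6744349 (Phe), chr2L:8542026-8542126 (Asp) and chr3R:24112675-24112775 (Leu). Capitals mark GAGAG, searched on both strands, and GGGGTAAC, letters picked out after the windows had been read.
Summit near tRNA:Tyr-GTA-1-8: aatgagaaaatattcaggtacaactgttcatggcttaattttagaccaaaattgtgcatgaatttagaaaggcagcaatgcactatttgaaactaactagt
Summit near tRNA:Gln-TTG-2-1: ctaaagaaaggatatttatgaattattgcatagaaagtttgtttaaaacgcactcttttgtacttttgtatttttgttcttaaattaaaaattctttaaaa
Summit near tRNA:Phe-GAA-1-2: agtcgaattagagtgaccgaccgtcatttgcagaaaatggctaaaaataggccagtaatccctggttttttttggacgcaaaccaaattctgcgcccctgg
Summit near tRNA:Asp-GTC-1-5: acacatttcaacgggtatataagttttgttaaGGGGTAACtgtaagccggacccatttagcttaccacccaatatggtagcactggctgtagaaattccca
Summit near tRNA:Leu-TAA-2-1: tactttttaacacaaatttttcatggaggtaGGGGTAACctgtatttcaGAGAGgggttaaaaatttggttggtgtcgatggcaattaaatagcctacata
None of these windows reaches a tRNA gene, so no A or B box of the annotated genes is in them.

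The binding data are 5 peak lists deposited by the authors. Relaxed lists, which keep background beside peaks, existed per replicate (29999, 30000 and 27393 entries on the arms used) and for the pooled replicates (23886 entries), and the reproducible list held 3511 peaks that passed the authors' test of agreement between replicates (IDR, irreproducible discovery rate). The reproducible peaks were the 3511 highest signals of the pooled list, and the strongest 3511 entries of each replicate were used beside them as a list of equal length per replicate. The lists hold no read counts, so depth is unknown and no counting interval is given. The scale of the signal is not stated, so signals are compared only within a list, and rank 1 is the highest signal.

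Few tRNA genes had a reproducible peak. A summit lay within 500 bp of the 5′ end of 14 of the 290 tRNA genes (4.83%), beside 15.3% of protein-coding genes and 12.8% of all genes. Of all bases on the arms, 2.52% lay within 500 bp of a reproducible summit, so the share of tRNA genes was below that of other genes and above that of bases. The strongest entries gave 17 (5.86%), 10 (3.45%) and 11 (3.79%) tRNA genes in replicates 1, 2 and 3, a mean share of 4.37% ± 1.31 (SD, n = 3). The shares of protein-coding genes were 14.9%, 14.5% and 15.5%, and those of all genes 12.6%, 12.1% and 12.9%. In each replicate the tRNA share was below the share of all genes, by a difference of -6.72, -8.65 and -9.15 percentage points (mean -8.17, SD 1.28), which is larger than the spread between replicates. Both shares come from the same replicates, and the difference was not tested. The count of 14 was 9 without replicate 2 and 8 without replicate 3, when a peak had to match one of the strongest entries of both other replicates. Genes of other types can have several starts, and with every transcript start counted the shares were 17.1% of protein-coding genes and 14.1% of all genes.

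**Figure D1:**
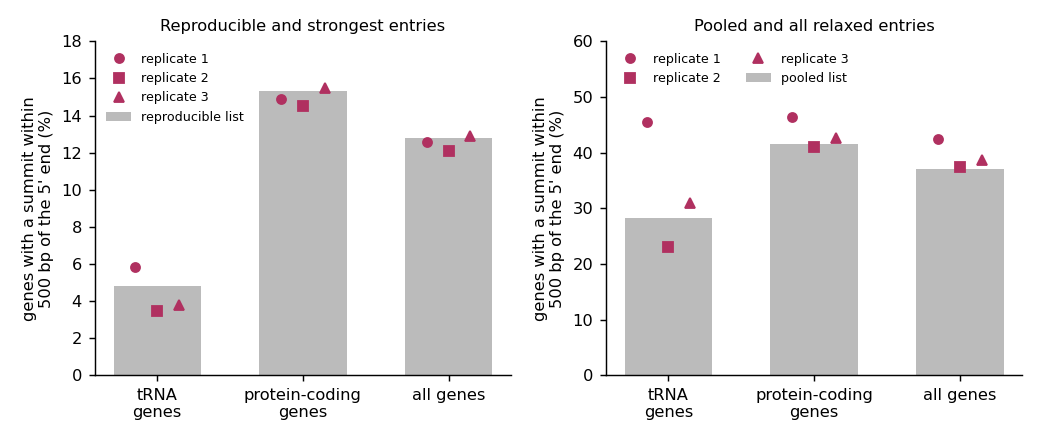
Share of genes (%) with a summit within 500 bp of the 5′ end, for tRNA genes, protein-coding genes and all genes. Bars are the reproducible list (left) and the pooled relaxed list (right), and points are the 3 replicates, with their 3511 strongest entries (left) or all entries (right); on the left every tRNA point lies below 6% and every protein-coding point above 14%, whereas on the right the tRNA point of replicate 1 (45.5%) stands apart from those of replicates 2 and 3 (23.1% and 31.0%).

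The relaxed lists, which include background by construction, held more. A pooled summit lay near 82 tRNA genes (28.3%), beside 41.5% of protein-coding and 37.1% of all genes and 16.3% of all bases. All entries of the replicates gave 132 tRNA genes (45.5%) in replicate 1, 67 (23.1%) in replicate 2 and 90 (31.0%) in replicate 3, against 46.5%, 41.0% and 42.7% of protein-coding genes and 42.4%, 37.4% and 38.7% of all genes. Replicate 1 thus stood above the others at tRNA genes by more than it did at protein-coding genes. Among genes that had a pooled summit at all, the summit was reproducible at 14 of 82 tRNA genes (17.1%), against 36.9% of protein-coding and 34.4% of all such genes. Taking all replicate entries, 37 tRNA genes had a summit in all 3 replicates, 39 in 2 of them, 100 in 1 and 114 in 0. With the strongest entries the counts were 7, 4, 9 and 270. In all, 113 tRNA genes had no summit in any list. The same counts over other genes are not given, so these are not read as low or high agreement.

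The median distance from a tRNA gene's 5′ end to the nearest reproducible summit was 13480 bp (quartiles 5015 and 23077 bp), against 9380 bp for protein-coding and 10082 bp for all genes. A summit lay within 200 bp of 2 tRNA genes (0.690%), against 11.1% of protein-coding and 8.99% of all genes. Within 5000 bp the counts were 73 tRNA genes (25.2%), 35.7% of protein-coding genes and 33.8% of all genes.

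The 14 genes shared 11 peaks, since 3 peaks each lay beside a pair of tRNA genes. Of the 11 summits, 9 also had a protein-coding TSS within 500 bp (12 tRNA genes) and 2 did not. Among all reproducible peaks 51.6% had such a TSS. In 8 of the 9 the summit lay upstream of that TSS. Over all 11 peaks the median distance was 240 bp to the nearest tRNA start and 223 bp to the nearest protein-coding TSS. Among the 9 alone, which were chosen for a TSS within 500 bp, the median distance to it was 98 bp. The summit was nearer to a protein-coding TSS than to a tRNA start in 6 peaks and nearer to a tRNA start in 5, by 2 bp (221 against 223 bp) in the Tyr case. Binding at the tRNA gene and at the protein-coding promoter cannot be told apart from a summit that close to both. No reproducible summit lay inside a tRNA gene, and 2 peak intervals reached into one, at tRNA:His-GTG-1-3 and tRNA:Thr-AGT-1-4. The peaks were of ordinary strength, with a median signal of 168 beside 175 for all reproducible peaks, and ranks between 163 and 3493. Of the 11 peaks, 7 matched one of the strongest entries in all 3 replicates. The same count over all reproducible peaks is not given, so this is not read as low or high.

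**Figure D2:**
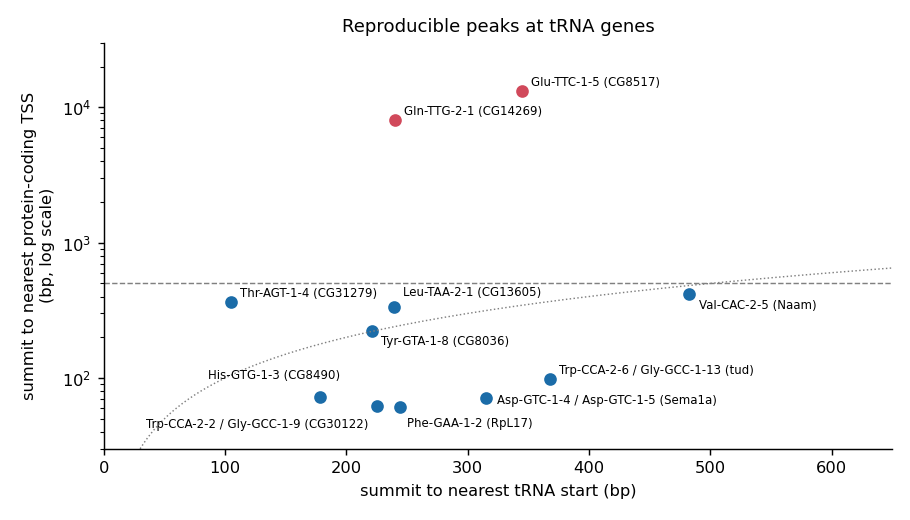
Distance (bp) of each of the 11 reproducible summits from the nearest tRNA start (x axis) and from the nearest protein-coding TSS (y axis, log scale), with the tRNA genes and, in brackets, the protein-coding gene named. The dashed line is 500 bp and the dotted line marks equal distances; 9 summits lie under the dashed line, and Gln-TTG-2-1 and Glu-TTC-1-5 (red) lie above it at 8044 and 13110 bp.

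The peaks without a protein-coding TSS nearby are those of a glutamine and a glutamate tRNA gene. The gene tRNA:Gln-TTG-2-1 (FBgn0052493, X, 3427452 to 3427523) is a lone gene in an intron of CG12535. Its summit at 3427763 lay 240 bp upstream of the tRNA start, with a signal of 320.1 (rank 616), and the nearest start of any other gene, that of CG14269, was 8044 bp away. Its replicate signals were 90.4, 123.1 and 113.1 (ranks 879, 489 and 486 within the lists of replicates 1, 2 and 3), all among the strongest entries. The gene has a sequence found nowhere else among the 290, and the summit window, printed above, has the lowest G+C content of the 11 (20.8%).

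The gene tRNA:Glu-TTC-1-5 (FBgn0011849, 2R, 19727460 to 19727531) lies in a cluster of 4 Glu genes outside any protein-coding gene. Its summit at 19727186 lay 345 bp downstream of the tRNA start, beyond the gene's 3′ end, with a signal of 189.9 (rank 1551) and replicate signals of 80.4, 49.4 and 52.9 (ranks 1081, 2384 and 1876). The nearest protein-coding TSS, of CG8517, was 13110 bp away, but the start of snoRNA:185, a small nucleolar RNA gene, was 34 bp away. Once the starts of all other genes are counted, tRNA:Gln-TTG-2-1 alone of the 14 had no other start within 500 bp of its summit.

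The strongest peak lay beside the last of 3 tyrosine tRNA genes. The summit at 8669395 on 3R had a signal of 579.8 (rank 163), 221 bp upstream of tRNA:Tyr-GTA-1-8 (FBgn0012024, 8669081 to 8669174), a gene in an intron of both CG8036 and p (pink, known for its eye colour mutants). It was also 223 bp upstream of a TSS of CG8036. The replicate signals were 228.2, 167.6 and 184.5 (ranks 115, 259 and 170). The other genes of the cluster, tRNA:Tyr-GTA-1-6 and tRNA:Tyr-GTA-1-7, had no reproducible summit within 500 bp, the second being 690 bp from the same summit.

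Of the other peaks, 5 lay 61 to 98 bp upstream of a protein-coding TSS. Among all 3511 reproducible peaks, 415 (11.8%) lay 50 to 100 bp upstream of one. The 5 were grouped after their distances were seen, and the shares were not tested. Beside tRNA:Phe-GAA-1-2 (FBgn0052740, X, 6744471 to 6744543) the summit was 61 bp upstream of RpL17, which encodes a protein of the large ribosomal subunit, and 244 bp downstream of the tRNA start. Its signal was 282.2 (rank 784), with 93.3, 94.6 and 94.7 in the replicates (ranks 830, 856 and 700). The histidine gene tRNA:His-GTG-1-3 (2R) had a summit 72 bp upstream of CG8490 and 178 bp upstream of its own start, with a signal of 168.2 (rank 1852) and 69.5, 48.9 and 51.5 in the replicates. All of these replicate entries were among the strongest.

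The other 3 of these 5 served pairs. A pair of aspartate genes with the same sequence, tRNA:Asp-GTC-1-4 and tRNA:Asp-GTC-1-5 (2L, 8541552 to 8541832), had a summit 71 bp upstream of Sema1a, a semaphorin of axon guidance, which was 453 bp upstream of the first and 315 bp downstream of the second. Its signal was 135.7 (rank 2540), with 60.6 and 50.9 among the strongest entries of replicates 2 and 3 but only 25.0 (rank 8283) in replicate 1. The pair tRNA:Trp-CCA-2-2 and tRNA:Gly-GCC-1-9 (2R, 18639557 to 18639796) had a summit 62 bp upstream of CG30122 with a signal of 173.6 (rank 1773) and 43.7, 69.0 and 56.6 in the replicates. A second tryptophan and glycine pair, tRNA:Trp-CCA-2-6 and tRNA:Gly-GCC-1-13 (2R, 21182678 to 21182926), had a summit 98 bp upstream of tud (tudor, needed for germ plasm), with a signal of 125.1 (rank 2843) and 37.0, 44.4 and 45.2 in the replicates. The entry of replicate 1 there, of rank 3930, was outside its strongest 3511. The genome holds 3 clusters with both a Trp and a Gly gene, of which these are 2. The summit lay on the Trp side of the first and on the Gly side of the second. The replicates reached the farther gene of each pair less often. No replicate had a summit within 500 bp of tRNA:Trp-CCA-2-6, and only replicate 1 had one within 500 bp of tRNA:Gly-GCC-1-9. Both genes are counted through the summit position in the reproducible list.

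The remaining 3 peaks lay 336 to 417 bp from a protein-coding TSS. The valine gene tRNA:Val-CAC-2-5 (FBgn0012003, 3R), in an intron of Naam, which encodes a nicotinamidase, had a summit 482 bp downstream of its start and 417 bp downstream of a Naam TSS, with a signal of 166.2 (rank 1881) and 74.8, 53.6 and 35.9 in the replicates. The threonine gene tRNA:Thr-AGT-1-4 (FBgn0051282, 3R, in an intron of CG31279) had the nearest summit of all, 105 bp upstream of its start and 362 bp upstream of a TSS of CG31279, with a signal of 119.4 (rank 3063) and 45.2, 28.6 and 42.6 in the replicates. The entry of replicate 2, of rank 6184, was not among its strongest. The leucine gene tRNA:Leu-TAA-2-1 (FBgn0053536, 3R) had a summit 239 bp upstream of its start and 336 bp upstream of CG13605, with a signal of 107.4 (rank 3493), close to the lowest of the reproducible list (107). Its replicate signals of 34.6, 36.6 and 33.1 were outside the strongest entries in each replicate.

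The 500 bp limit fell between 482 bp (tRNA:Val-CAC-2-5), 475 bp (tRNA:Trp-CCA-2-6) and 464 bp (tRNA:Gly-GCC-1-9) inside it and 594 bp (tRNA:Leu-CAA-2-2), 606 bp (tRNA:Ile-AAT-1-9) and 629 bp (tRNA:Arg-TCT-1-1) outside it.

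Of the surroundings compared, the nearness of a protein-coding TSS went with the widest difference in share. Among 32 tRNA genes whose start lay within 500 bp of a protein-coding TSS, 9 (28.1%) had a reproducible summit, against 5 of 258 (1.94%) farther away. At tRNA:Asp-GTC-1-4, tRNA:Trp-CCA-2-6 and tRNA:Val-CAC-2-5, among these 5, the summit itself lay within 500 bp of a protein-coding TSS. The strongest entries of the replicates gave 20.8% ± 1.80 of the near genes and 2.33% ± 1.34 of the far genes (SD, n = 3), a difference larger than the spread between replicates. Any base of the arms near a protein-coding TSS was also more often within 500 bp of a reproducible summit: 10.9% of bases near a TSS and 1.44% of bases beyond. Without replicate 3 the near count was 5 of 32 and the far count 3 of 258, and without replicate 2 the far count was also 3. The share at the far tRNA genes was close to that of far bases. In the pooled list the difference was narrower, with 12 of 32 near genes (37.5%) and 70 of 258 far genes (27.1%), beside 35.6% of near bases and 13.8% of far bases.

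Most summits near these 32 genes went with a summit at the neighbouring TSS. The nearest protein-coding TSS itself had a reproducible summit for 8 of the 32, and 7 of these 8 tRNA genes had a summit too, the exception being tRNA:Val-TAC-1-1 near lama. Of the 24 whose nearest TSS had none, 2 had a summit: tRNA:Gly-GCC-1-9, through the peak at CG30122, and tRNA:Leu-TAA-2-1, through that at CG13605. The closest tRNA start to a protein-coding TSS, that of tRNA:Tyr-GTA-1-9 at 11 bp from Ntl, had no summit in the reproducible or pooled list. The counts for the tRNA start and for the TSS share summits by construction, since windows that close overlap.

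**Figure D3:**
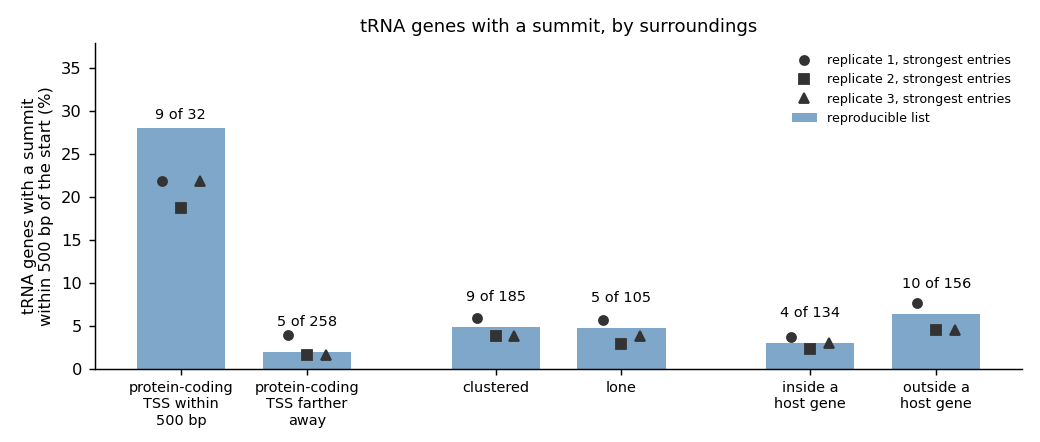
Share of tRNA genes (%) with a reproducible summit within 500 bp of the start (bars, with counts) and with one of the strongest entries of each replicate (points), for genes near and far from a protein-coding TSS, clustered and lone, inside and outside a host gene. The near bar (9 of 32) stands above all others, and clustered and lone genes (9 of 185 and 5 of 105) are level.

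Clustered and lone genes did not differ in the reproducible list beyond the spread between replicates. Genes were called clustered where the gap to the next tRNA gene was at most 1000 bp, which placed 185 in 69 clusters and left 105 alone. A reproducible summit lay near 9 clustered genes (4.86%) and 5 lone genes (4.76%), and the strongest entries gave 4.50% ± 1.25 and 4.13% ± 1.45 (SD, n = 3). In the pooled list 31.4% of clustered and 22.9% of lone genes had a summit, and a summit near a cluster can count for several of its genes. Counted by locus, 6 of 69 clusters (8.70%) and 5 of 105 lone genes (4.76%) were reached by a reproducible peak. A cluster covers more bases than a lone gene, and the part of that in the difference was not tested.

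No gene in the 5 largest clusters had a reproducible summit, beside 4.83% of all tRNA genes. At that share few would fall in their 31 genes, so this 0 is not read as a difference. The 7 Arg and Ser genes on X (14014814 to 14017284) had 0 pooled summits, the 7 Ile and Leu genes in ATP8A (2R, 13430282 to 13432794), whose product is a phospholipid flippase, had 1 gene with a pooled summit, and the 6 Cys and Lys genes in Cht7 (3L, 3095737 to 3097590), a chitinase gene, had 3, all beside 1 summit. The 6 Arg and Asn genes on 3R (8139533 to 8141042) and the 5 Arg, Asn and Lys genes in EcR (2R, 6161535 to 6162753), the ecdysone receptor gene, had 0. In the Cht7 cluster 5, 3 and 4 of the 6 genes had an entry of replicates 1, 2 and 3, whereas in the EcR cluster 0, 0 and 4 of 5 had one. The 4 genes there lie beside a single entry of replicate 3, of rank 26099. Over all 31 genes in clusters of 5 or more, 4 (12.9%) had a pooled summit, beside 28.3% of all tRNA genes. Of these 4, 3 share the 1 summit in Cht7, and the difference was not tested. The share of words unique in the genome, described below, was low in the X cluster. In the windows around its starts it was 92.9%, 89.2%, 86.9%, 66.9%, 65.9%, 71.4% and 77.2%, in gene order. The median over all tRNA genes was 96.1%. The part of this in the 0 pooled summits of the X cluster was not tested.

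Of the 134 genes inside a host, that is between the ends of a protein-coding gene, 4 had a reproducible summit (2.99%), against 10 of 156 outside (6.41%). The strongest entries gave 2.99% ± 0.746 inside and 5.56% ± 1.85 outside (SD, n = 3), and the pooled list 21.6% and 34.0%. The difference was not tested. Of the 59 genes with a host on the same strand, 3 had a reproducible summit (5.08%), below but nearer to the 6.41% outside. The 231 genes without such a host, 11 of them with a summit (4.76%), include genes inside a host on the other strand. All 4 of the reproducible cases inside a host lay in introns. The 72 host genes had a reproducible summit at 11 of their 5′ ends (15.3%), beside 15.3% of all protein-coding genes. With any transcript start counted they had one at 21 (29.2%), beside 17.1% of protein-coding genes. A gene with more starts has more windows in which a summit can be counted, and the part of that in the difference was not tested. Of 46 tRNA genes inside those 21 hosts, 3 had a reproducible summit near their start (tRNA:Tyr-GTA-1-8, tRNA:Val-CAC-2-5 and tRNA:Thr-AGT-1-4), and in each case it was the peak within 500 bp of the host's TSS. Among the genes near a protein-coding TSS, 2 of 17 inside a host and 7 of 15 outside had a summit.

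By isotype, 11 of 22 had at least 1 gene with a reproducible summit. Asp (2 of 14), Gly (2 of 20) and Trp (2 of 8) had the most. The 8 with 1 were Gln, Glu, His, Leu, Phe, Thr, Tyr and Val. The other 11 isotypes, with 140 genes, had none, among them Arg (26 genes), Ser (20), Lys (19), Ala (17) and Pro (17). Pooled summits were wider spread and reached every isotype but Asn (0 of 10). Beside 28.3% of all tRNA genes, Pro had 9 of 17 genes with a pooled summit, iMet 4 of 6 and SeC its only gene, with 1 of 1. Neighbouring genes can share a summit, as the 4 iMet genes did in pairs (pooled ranks 6013 and 7808). The pooled shares of isotypes were not tested. No isotype held more than 2 genes with a reproducible summit, so the shares of isotypes cannot be ranked.

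**Figure D4:**
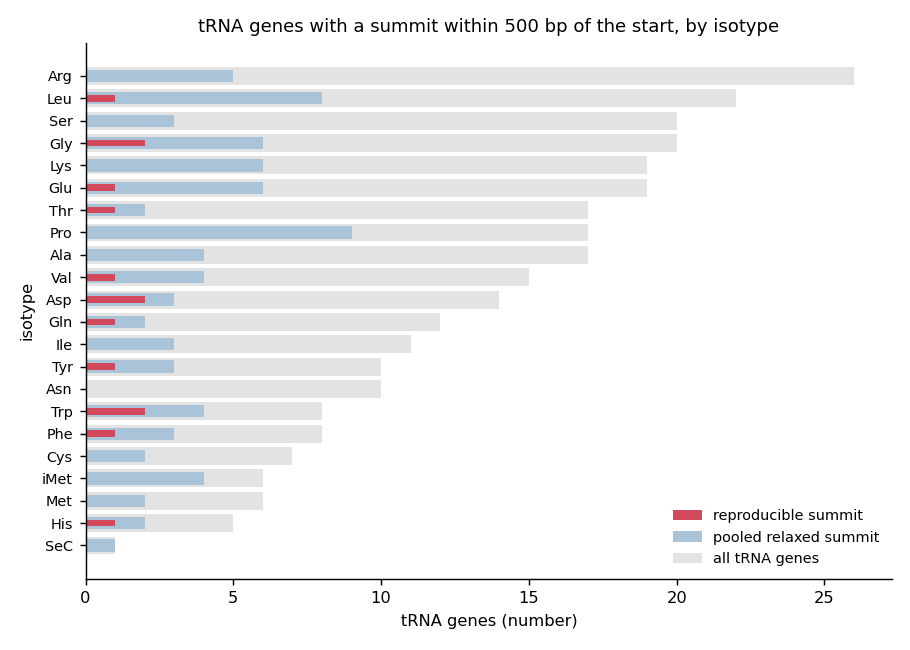
Number of tRNA genes per isotype (light bars), of those with a pooled relaxed summit (blue) and of those with a reproducible summit (red) within 500 bp of the start. Red bars never pass 2, and Asn has neither a blue nor a red bar.

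By arm, 2R had 6 genes with a reproducible summit, 3R 4, 2L and X 2 each, and 3L 0 of 48, beside 4.83% of all tRNA genes. At that share few would fall on 3L, so its 0 is not read as a difference between arms. In the pooled list 13 genes on 3L (27.1%) had a summit, beside 28.3% of all tRNA genes.

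Identical copies of a tRNA gene did not all have a peak. The 290 genes had 95 distinct sequences, and 238 of them (82.1%) had at least 1 identical copy. Of 43 sequences with several copies, 8 had a copy with a reproducible summit, and all 8 also had a copy without one. In these 8, 11 of 63 copies had a summit. The 8 were picked for having a summit, and only 4.83% of all tRNA genes had one. A copy without a summit was therefore to be expected in each, and no conclusion about copies is drawn. The Asp sequence printed above occurs 12 times, with 2 copies having a summit, both beside the same peak. The Val sequence occurs 6 times, all on 3R, with a summit at 1. All reproducible summits lay outside the genes, in flanks that differ between copies. Over 290 genes the median share of 50-base words unique in the genome was 0% within the gene and 96.1% in the window of 500 bp on either side of the start. It was 93.8% or more for the windows of all 14 genes with a summit, and 90% or more for 245 of the 276 others (88.8%), so for most genes without a summit the windows held mostly unique sequence.

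In the pooled list and in replicates 1 and 3, summits were denser in the gene bodies than in any flanking bin counted, and in replicate 2 they were densest at 201 to 300 bp (55.4 per 100 kb). Away from protein-coding TSSs, the pooled list had 76.3 summits per 100 kb of tRNA gene body (15 summits in 19653 bp), against 14.8 over the arms. The replicates had 102, 35.6 and 86.5 in bodies (74.6 ± 34.6, SD, n = 3), against 18.8 ± 1.26 over the arms, so replicate 2 had the least. In the next 100 bp the pooled density was 24.0, and in the following bins of 100 bp it was 20.4, 40.8, 6.36 and 34.0. It thus did not fall steadily away from the bodies, and these later bins held 2 to 14 pooled summits each. The reproducible list had 0 summits in bodies and in the first 200 bp, and 2 at 201 to 300 bp. At the arm's density of 1.43 per 100 kb under 1 reproducible summit would fall in all the bodies together, so this 0 is not a difference that could be detected. The body summits came from 39 genes in any of the 4 relaxed lists, of which 30 had one in 1 replicate only, 6 in 2, 2 in all 3, and 1 in the pooled list only. Their highest pooled rank was 5077, of tRNA:Leu-CAG-1-3, below the reproducible list. The bodies differ from the arms in unique sequence (median 0% of 50-base words) and in G+C content (median 58.5%, beside 35.6% at all reproducible summits), and the part of these in the densities was not tested.

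**Figure D5:**
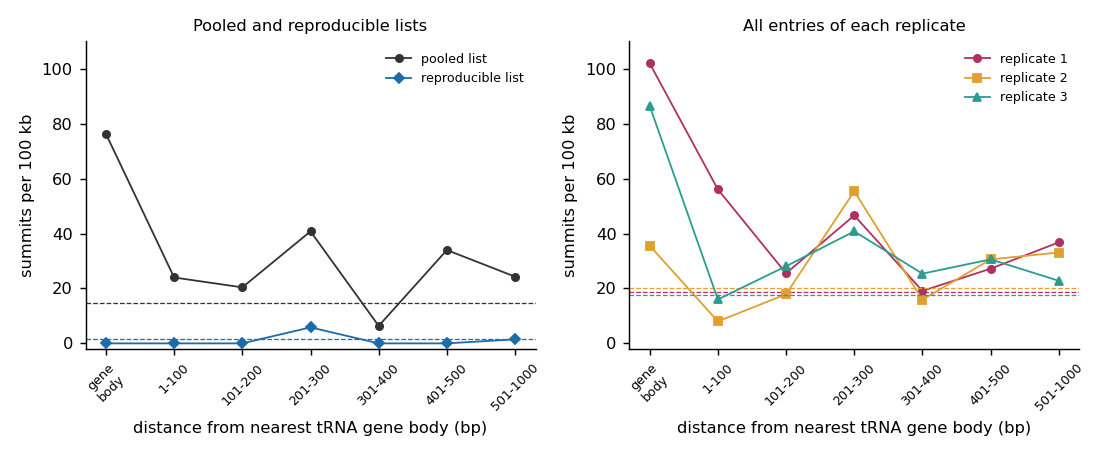
Summits per 100 kb by distance (bp) from the nearest tRNA gene body, over bases more than 500 bp from a protein-coding TSS, for the pooled and reproducible lists (left) and all entries of the 3 replicates (right). Dashed lines give the density over the whole arms; the body value is 76.3 in the pooled list and 0 in the reproducible list.

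The tRNA genes with the highest pooled signal but no reproducible summit were led by tRNA:Gly-TCC-2-2 (2R), a lone gene 9890 bp from a protein-coding TSS at its summit, with a signal of 98.2 (rank 3943). Its replicate signals were 61.2 (rank 1736), 23.0 (rank 10494) and 18.5 (rank 11690), so replicate 1 alone placed it among the strongest. The cluster of tRNA:Leu-CAG-1-2, tRNA:Leu-CAG-1-3 and tRNA:Leu-CAG-1-4 (3L) shared a summit with a signal of 81.7 (rank 5077) and replicate signals of 33.5, 19.9 and 15.6. The SeC gene tRNA:SeC-TCA-1-1, whose tRNA reads UGA as selenocysteine, had 80.0 (rank 5262), with 22.9, 32.1 and 23.2 in the replicates (ranks 10017, 4827 and 6884). A summit in hts, the adducin gene, with 77.1 (rank 5566), served tRNA:Ser-CGA-1-4 and tRNA:Val-AAC-2-1, and a summit with 73.3 (rank 6013) lay inside tRNA:iMet-CAT-1-2 and within 500 bp of the starts of tRNA:iMet-CAT-1-1 and tRNA:Glu-TTC-1-4. Of these 10 genes, only tRNA:Gly-TCC-2-2 had an entry among the strongest of any replicate.

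In letters, the windows at the 11 peaks were mixed. GAGAG was in 1 of the 11 windows of 101 bp (tRNA:Leu-TAA-2-1), beside 10.1% of all reproducible summits. TATCGATA, the DRE core, was in 1 (tRNA:Trp-CCA-2-2), beside 2.42%, and CGATA, which it contains, in the same 1, beside 18.7%. GTTCNANNC, the B box core, was in 3 (near tRNA:Glu-TTC-1-5, tRNA:Trp-CCA-2-2 and tRNA:His-GTG-1-3), beside 2.76% of all windows, although no summit lay inside a tRNA gene. All motifs were searched on both strands. The median G+C content of the 11 windows was 37.6% (20.8% to 51.5%), beside 35.6% at all reproducible summits. With 11 windows these are descriptions only.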

How the data were processed

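Peak lists were used as the authors deposited them: narrowPeak lists on dm6 with a signal value and a summit per peak. Per the deposited file listing, relaxed lists of peaks and background were called against a control alignment for each replicate and for pooled replicates, and the reproducible list is their IDR-thresholded form. The aligner, the peak caller, the IDR threshold and the signal's scale are each not given in the sources, and lists on dm3 were not used. No control library was analysed here.

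Summits were matched to annotated 5′ ends within 500 bp (Python 3.11.15, numpy 2.4.6, matplotlib 3.10.9, Ensembl release 115). A protein-coding TSS is the start of any transcript of a protein-coding gene. Clusters join genes at most 1000 bp apart, and a host is a protein-coding gene spanning the tRNA gene. The matching was tested on simulated data. Replicate lists shared 0.767% to 1.32% of exact summits and no signal value, so each counted as a sample. Without a second group, no test between conditions exists, and values are counts or mean ± SD over 3 replicates, which measure the spread between these samples only.

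Members and lists were chosen with earlier results of these data known. The genes named are those with a reproducible summit, the 8 without one with the highest pooled signal (10, since 3 tied at the last place), the 5 largest clusters, and the protein-coding neighbours and hosts of these; other genes were named after their values were seen. Sequences come from the RefSeq Release 6 genome, and a selection is printed. Alternatives tried were other windows, whole peak intervals, a stronger part of the list, leaving out a replicate, other starts, gaps and host rules.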

Additional observations from a re-analysis of the deposited data

How the results depend on the processing

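The number of tRNA genes with a reproducible summit was 14 within 500 bp, 2 within 200 bp, 23 within 1000 bp, and 4 when only the stronger 1755 peaks were used. Leaving out a replicate gave 8 to 12 (12, 9 and 8 without replicates 1, 2 and 3). A reproducible peak then had to match one of the strongest entries of both other replicates, and the list was not called again. The same rule kept 2722, 2683 and 2694 of all 3511 reproducible peaks. Distinct peaks numbered 11, with 2 within 200 bp, 4 among the stronger peaks and 7 to 9 on leaving out a replicate. Genes without a protein-coding TSS within 500 bp of the summit numbered 2. They were 0 within 200 bp, 6 within 1000 bp, 4 with whole peak intervals, 4 with only the 5′ end of each protein-coding gene, and 1 with the starts of all other genes. They stayed at 2 on leaving out a replicate. The share of tRNA genes minus that of all genes was -7.93 percentage points, -9.32 with every transcript start and -17.3 among genes with a pooled summit, and kept its sign. Pooled summits reached 82 genes, 43 within 200 bp and 135 within 1000 bp. The replicates' mean was 12.7 genes with the strongest entries and 96.3 with all entries. Of the genes near a protein-coding TSS, 9 had a summit, and 5 to 7 on leaving out a replicate, where far genes kept 5, 3 and 3 (chosen after seeing the data). Counts under other cluster gaps and host rules stayed within 1.5 times. The shares were 2.99% inside a host and 6.41% outside. With same-strand hosts only, the share inside was 5.08%. It was 4.76% of the other genes, which include those inside a host on the other strand. The cause was not tested where a count moved, except that a narrower window or fewer peaks can only lower it. No paired analysis was possible because the samples form 1 group. Depth is unknown, so absence from a list is not absence of binding.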

Other observations

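The letters GGGGTAAC were noticed when the summit windows near tRNA:Asp-GTC-1-5 and tRNA:Leu-TAA-2-1 were read, and were then counted on both strands. They were in 2 of the 11 windows and in 4 of all 3511 reproducible windows (0.114%), the 2 included. The choice was made from these windows, so no test was made. Both peaks are weak, at ranks 2540 and 3493.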
